A study of Mus musculus with 6 samples.

Results

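The genes described are 30 that a cell uses to make, sense, move and export cholesterol, chosen by name from a table of 56691 genes. They comprise 18 enzymes of the synthesis route, 5 sensing and regulatory genes, 4 genes of transport, efflux and esterification, and a set of 3 that holds both liver X receptors and Mylip. All 30 symbols were found once, and all 30 passed the filter on low counts, with at least 23 counts in every library. RNA came from KVTR cells, labelled as a mouse line of primary clear cell renal carcinoma. Of the 6 libraries, 3 came from cells given dopamine, a catecholamine transmitter, and 3 from cells labelled blank. The study's stated purpose included splicing events induced by dopamine; gene-level counts are described here. The labels used here state neither dose and duration nor what the blank cells received. Nor do they say whether cultures were separate, so p-values reflect spread among libraries only, and that spread may be technical. Blank libraries 2 and 3 carry their numbers in the table, and the other, which carries no number in the table or the plots, is called blank U. Total counts ran from 16771499 to 23375622 per library.

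Cholesterol is built from acetyl-CoA through mevalonate, farnesyl diphosphate, squalene and lanosterol. When sterols in the endoplasmic reticulum are scarce, Scap carries the SREBP proteins (encoded by Srebf1 and Srebf2) to the Golgi, where they are cut to release transcription factors that switch on the synthesis genes, and Insig proteins hold Scap back when sterols are plentiful. Oxysterols, which form when cholesterol accumulates, activate the liver X receptors, which switch on the exporters Abca1 and Abcg1, Srebf1 itself, and Mylip, a ubiquitin ligase that removes lipoprotein receptors from the cell surface.

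The labelled cell type was checked against marker genes. Of 12 renal tubule markers, 4 stayed under 1 CPM (counts scaled to a common library total) in every library. Pax8, a nuclear marker of renal carcinoma, stood at 0.619 to 1.15 CPM with dopamine, against 0.384 to 0.81 CPM without it. The renal markers summed to 143 to 435 CPM with dopamine, against 177.5 to 361 CPM without it. Lrp2, an endocytic receptor also made outside the kidney, gave 94.4 to 384 CPM of this with dopamine, against 87.1 to 235 CPM without it. The 10 astrocyte markers, of which S100b was near the limit of detection in dopamine 1 at 0.115 CPM, had sums of 1138 to 5533 CPM with dopamine, against 1134 to 6720 CPM without it. Fibroblast and pericyte markers summed to 456 to 2474 CPM with dopamine, against 1708 to 2401 CPM without it, and neuron markers to 161 to 399 and 141 to 417 CPM. Markers of several cell types were thus present.

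Promoter sequences are shown for Idi1, Mvk, Cyp51 and Insig1, whose 2 highest libraries were the same, as described below, for Abca1, which was lowest in those libraries, and for Hmgcs1. RefSeq promoter windows of build GRCm38.p6, from 250 bases before to 50 bases after a gene start, were matched by symbol for 25 of the 30 genes. Those without an entry were Abcg1, Fdft1, Fdps, Sqle and Stard4. The words, searched on both strands, were TCACNCCAC, a sterol response word read by SREBP proteins, CCAAT, which the SREBP partner NF-Y reads, and CACGTG, an E-box. Sequences run 5′ to 3′ on the gene's strand, and capitals mark these words, with ATTGG being CCAAT on the other strand. Hmgcs1, which had other highest libraries, is included for its sterol response word, and Mvk held 5 CCAAT words.

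Hmgcs1 (chr13:119690101-119690400, plus strand): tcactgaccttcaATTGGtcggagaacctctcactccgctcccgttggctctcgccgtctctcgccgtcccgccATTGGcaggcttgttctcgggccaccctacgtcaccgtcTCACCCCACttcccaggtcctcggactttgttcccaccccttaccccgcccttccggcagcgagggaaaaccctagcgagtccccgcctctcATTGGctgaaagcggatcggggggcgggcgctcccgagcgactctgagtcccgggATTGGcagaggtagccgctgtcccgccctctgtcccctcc
Idi1 (chr13:8885356-8885655, plus strand): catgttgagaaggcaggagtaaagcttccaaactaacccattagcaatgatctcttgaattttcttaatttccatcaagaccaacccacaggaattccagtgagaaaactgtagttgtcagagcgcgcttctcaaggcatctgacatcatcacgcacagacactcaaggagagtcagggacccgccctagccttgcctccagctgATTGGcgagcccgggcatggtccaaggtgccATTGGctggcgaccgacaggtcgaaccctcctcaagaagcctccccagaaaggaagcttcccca
Mvk (chr5:114444019-114444318, plus strand): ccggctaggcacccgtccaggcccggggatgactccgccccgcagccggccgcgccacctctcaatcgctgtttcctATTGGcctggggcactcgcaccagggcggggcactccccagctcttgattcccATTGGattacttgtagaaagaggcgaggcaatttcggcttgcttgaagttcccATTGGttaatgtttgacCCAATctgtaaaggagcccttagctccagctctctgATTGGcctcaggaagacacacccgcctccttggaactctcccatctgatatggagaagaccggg
Cyp51 (chr5:4104648-4104947, minus strand): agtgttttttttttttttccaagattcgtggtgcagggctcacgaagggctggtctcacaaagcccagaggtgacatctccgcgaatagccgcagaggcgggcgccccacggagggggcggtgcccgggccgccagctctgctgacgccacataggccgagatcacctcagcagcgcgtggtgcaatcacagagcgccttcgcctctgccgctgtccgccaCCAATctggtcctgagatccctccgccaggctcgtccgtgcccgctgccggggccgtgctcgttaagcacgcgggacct
Insig1 (chr5:28071162-28071461, plus strand): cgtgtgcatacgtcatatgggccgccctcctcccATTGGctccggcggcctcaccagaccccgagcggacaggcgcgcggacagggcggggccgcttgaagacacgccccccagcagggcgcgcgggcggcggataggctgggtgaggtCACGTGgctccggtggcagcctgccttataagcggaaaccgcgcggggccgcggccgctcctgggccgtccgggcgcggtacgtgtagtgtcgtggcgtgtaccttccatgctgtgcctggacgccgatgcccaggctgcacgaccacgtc
Abca1 (chr4:53159846-53160145, minus strand): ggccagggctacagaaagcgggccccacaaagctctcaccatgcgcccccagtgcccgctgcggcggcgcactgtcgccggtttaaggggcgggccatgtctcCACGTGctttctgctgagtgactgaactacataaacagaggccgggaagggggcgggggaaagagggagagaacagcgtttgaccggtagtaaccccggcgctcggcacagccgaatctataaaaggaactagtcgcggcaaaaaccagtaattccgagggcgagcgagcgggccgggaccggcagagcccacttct

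CCAAT occurred in 14 of the 15 synthesis genes with a window (93.3%) and in 20 of 25 genes of the whole set (80.0%), against 41.1% of 27025 genes with a window and 43.2% of 11231 such genes tested for expression. Hmgcs1 was the only one of the 25 with TCACNCCAC, which 1.44% of all genes with a window held. CACGTG occurred in Abca1, Dhcr7, Hsd17b7, Insig1, Sc5d and Scap, and in 8.09% of all genes with a window. Acat2, Nr1h2 and Nr1h3 held none of these words in any window. A match is a description of letters and not of binding, and the absence of a word says only that these letters are not in this window.

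The dopamine and blank libraries overlapped at all 30 genes. The edgeR quasi-likelihood test called 0 of 30 after Benjamini-Hochberg adjustment over all 15420 genes tested (background 0%, smallest adjusted p of a cholesterol gene = 0.9997), and DESeq2 also called 0 of 30 (background 0.13%). At an unadjusted edgeR p under 0.05 there were 0 of 30, against 1.04% of all genes tested on the higher side and 1.9% on the lower. For 0 genes did the 3 dopamine values all lie above the 3 blank values (background 4%), and for 0 all below (background 4.47%). The median log2 fold change, dopamine over blank, was -0.03 for the synthesis enzymes (8 of 18 on the higher side), 0.27 for sensing and regulation (5 of 5), 0.08 for transport, efflux and esterification (3 of 4) and 0.05 for the liver X receptors and Mylip (2 of 3), beside 0.01 for all genes tested. The synthesis median was -0.23 to 0.58 with a library left out, and reached 0.58 without blank U and -0.23 without blank 3. The sensing and regulation median was 0.12 without dopamine 1 and 0.44 without dopamine 2. The transport median was -0.046 without dopamine 2 and 0.44 without blank 2, and that of the liver X receptors and Mylip was -0.22 without dopamine 2 and 0.33 without blank 3.

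**Figure D1:**
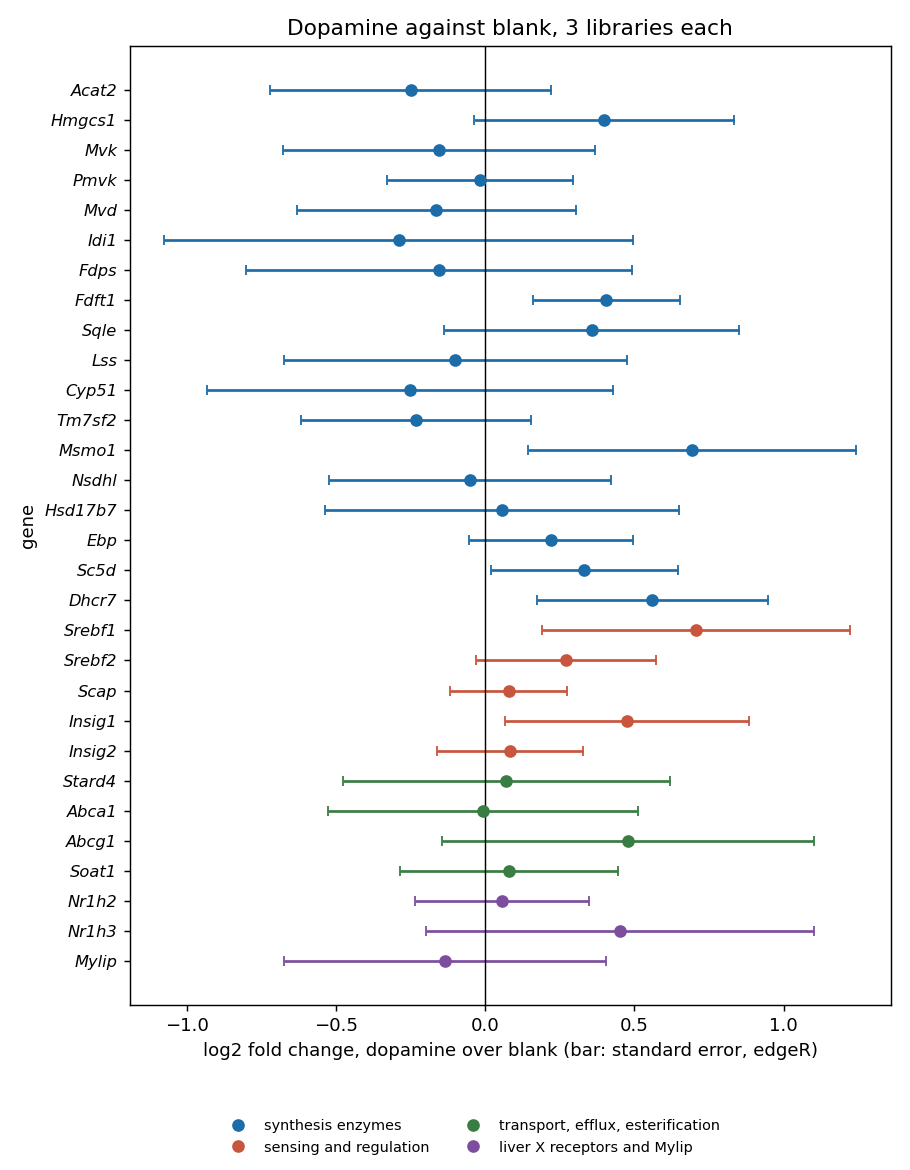
Log2 fold change of each gene, dopamine over blank, with its standard error (edgeR, 3 libraries per group), coloured by role. Values run from -0.29 for Idi1 to 0.71 for Srebf1, and the bars of all genes but Fdft1, Msmo1, Sc5d, Dhcr7, Srebf1 and Insig1 reach 0.

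The libraries differed strongly among themselves, in a way that cut across treatment. Dopamine 1 and blank U held the 2 highest values for 12 of 18 synthesis enzymes (66.7%), a position these libraries took in 15.4% of all genes tested, and the 2 lowest values for 0 of 18 (16.4% of all genes tested). The exceptions were Acat2, Hmgcs1, Fdft1, Tm7sf2, Nsdhl and Ebp. As log2 CPM relative to each gene's mean over 6 libraries, the median synthesis enzyme lay at 0.65 in dopamine 1, -0.62 in dopamine 2 and 0.18 in dopamine 3, and at -0.45 in blank 2, -0.45 in blank 3 and 0.83 in blank U. The liver X receptors and Mylip lay at -0.43, 0.62 and -0.0021 in dopamine 1, 2 and 3, and at 0.29, 0.32 and -1.14 in blank 2, 3 and U. This pattern was noticed in the values and has no test.

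**Figure D2:**
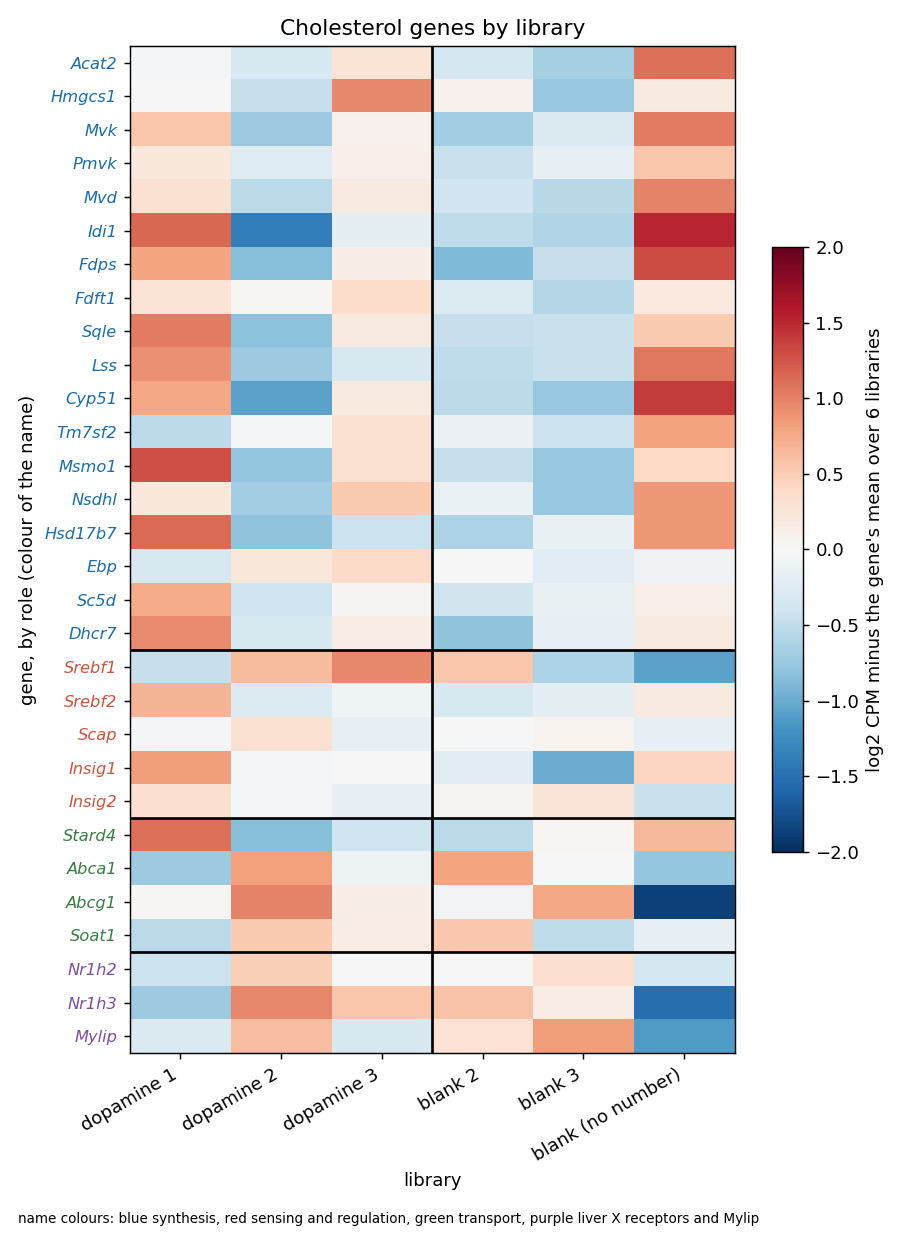
Each gene's log2 CPM in each library minus its mean over the 6 libraries, with dopamine libraries left of the vertical line, blank libraries right of it, and roles separated by horizontal lines. Most synthesis enzymes are red (high) in dopamine 1 and blank U, where Abca1, Nr1h2 and Nr1h3 are blue (low).

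Some marker lists set dopamine 1 and blank U apart from the other libraries, and others did not. The astrocyte sum was lowest in dopamine 1 and blank U. It was 1138 CPM in dopamine 1, 5533 in dopamine 2 and 4706 in dopamine 3, and 6720 in blank 2, 2296 in blank 3 and 1134 in blank U. Gfap, Aqp4, Slc1a2, Slc1a3, S100b and Aldoc were likewise lowest in dopamine 1 and blank U. The rest of the list did not follow: Aldh1l1 and Sox9 were lowest in blank 3, and Gja1 in dopamine 3. Fabp7 was lower in blank 3 than in blank U. Genes of dividing cells were high in blank U alone and summed to 29.8 to 32.9 CPM in dopamine libraries, and to 52.8, 42.9 and 467 CPM in blank 2, 3 and U. Olig2, a transcription factor of the oligodendrocyte lineage, was at 142.5, 22.4 and 24.2 CPM in dopamine 1, 2 and 3, and at 21.8, 22.9 and 111 CPM in blank 2, 3 and U. The oligodendrocyte list, all 9 of whose genes were in the table and in which Sox10 had no count in any library (allowing up to 0.128 to 0.179 CPM), summed to 212 to 448 CPM with dopamine, against 200.3 to 459 CPM without it. Other lists did not pair dopamine 1 with blank U. Neuron markers summed to 399, 161 and 166 CPM in dopamine 1, 2 and 3, against 145.5, 417 and 141 CPM in blank 2, 3 and U. Fibroblast and pericyte markers summed to 456, 1539 and 2474 CPM in dopamine 1, 2 and 3, against 2401, 1708 and 2115 CPM in blank 2, 3 and U. Renal tubule markers summed to 435, 182 and 143 CPM in dopamine 1, 2 and 3, against 177.5, 361 and 214 CPM in blank 2, 3 and U. The part of any of these markers in the cholesterol gene pattern was not tested. In bulk RNA, fewer cells of a type and less RNA per cell cannot be told apart.

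The first steps, from acetyl-CoA to isopentenyl diphosphate, are run by Acat2, Hmgcs1, Mvk, Pmvk and Mvd. Hmgcs1 makes HMG-CoA and stood at 456, 332 and 892 CPM in dopamine 1, 2 and 3, against 485, 272 and 519 CPM in blank 2, 3 and U. Its highest library was dopamine 3 and the groups overlapped (log2 fold change 0.40 ± 0.44 SE). Per exonic length its median over libraries was the highest of the 30 genes, at 102 FPKM (CPM per kilobase of exon). Acat2, the cytosolic thiolase that joins acetyl-CoA units, ranged from 40.5 to 60.8 CPM with dopamine, against 31.6 to 107.5 CPM without it (-0.25 ± 0.47). Acat3, a similar gene beside it on chromosome 17, had 42, 319 and 288 counts in dopamine 1, 2 and 3, and 230, 97 and 11 counts in blank 2, 3 and U, and how reads of the pair were divided is not given. Mvk (-0.15 ± 0.52), Pmvk (-0.02 ± 0.31) and Mvd (-0.16 ± 0.47), the kinases and the decarboxylase that follow, each peaked in blank U, at 38.3, 29.2 and 35.3 CPM.

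Farnesyl diphosphate is reached through Idi1 and Fdps. Idi1, which isomerises isopentenyl diphosphate, stood at 63.6, 11 and 25.2 CPM in dopamine 1, 2 and 3, against 20.2, 18.8 and 82.8 CPM in blank 2, 3 and U (-0.29 ± 0.79). The highest library exceeded the lowest 7.53-fold, the largest such ratio of the 30 genes, while the groups overlapped throughout. Its related genes Idi1-ps1 and Idi2 had at most 23 and 1 counts in a library. Fdps, farnesyl diphosphate synthase, was at 67.4, 21.6 and 42.5 CPM in dopamine 1, 2 and 3, against 21.2, 28.6 and 96.5 CPM in blank 2, 3 and U (-0.15 ± 0.65).

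Squalene is made by Fdft1 and oxidised by Sqle, a rate-controlling enzyme. Sqle stood at 267, 74.4 and 149 CPM in dopamine 1, 2 and 3, against 96.2, 97.4 and 189 CPM in blank 2, 3 and U (0.36 ± 0.49). Dopamine libraries held both its highest and its lowest value. Fdft1 varied less, from 183 to 229 CPM with dopamine, against 121.5 to 205 CPM without it (0.41 ± 0.25), and its unadjusted edgeR p of 0.145 was the smallest of the 30. The 3′ ends of Fdft1 and Ctsb, an abundant lysosomal protease gene on the opposite strand, share 774 bases, and Ctsb had up to 30.2 times as many counts as Fdft1. Ctsb stood at 1209, 5525 and 3314 CPM in dopamine 1, 2 and 3, and at 2264, 1772 and 745 CPM in blank 2, 3 and U. The kit does not mark strand, so reads from the shared bases cannot be told apart, and their part in the Fdft1 counts was not tested.

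The later enzymes make lanosterol and turn it into cholesterol. Lss, which closes the sterol rings, was at 80.2 CPM in dopamine 1 and 88.7 CPM in blank U, but 25.8 to 34.2 CPM in the other 4 libraries (-0.10 ± 0.57). Cyp51, the lanosterol demethylase, stood at 167, 46.7 and 111 CPM in dopamine 1, 2 and 3, against 68.2, 58.1 and 259 CPM in blank 2, 3 and U (-0.25 ± 0.68). Its highest library was 5.56-fold above its lowest, and the highest was a blank library. Cyp51 shares 166 bases with Akap9 on the opposite strand, Srebf1 shares 109 with Rai1 and Tm7sf2 shares 532 with Vps51, and how shared reads were counted is not known. Msmo1, a sterol methyl oxidase, had the highest fold change of the enzymes without passing any test (0.69 ± 0.55), with 696 CPM in dopamine 1, 167 in dopamine 2 and 350 in dopamine 3, against 206, 168 and 376 CPM in blank 2, 3 and U. Its log2 fold change was 0.045 without dopamine 1 and 1.11 without blank U.

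Dhcr7, a sterol reductase at the end of the route, stood at 75.03, 31.5 and 43.3 CPM in dopamine 1, 2 and 3, against 22.3, 34.9 and 44.3 CPM in blank 2, 3 and U (0.56 ± 0.39). Only dopamine 1 lay above every blank library. Hsd17b7, a ketosterol reductase, was at 178 CPM in dopamine 1 and 147 CPM in blank U, but 46.2 to 73.3 CPM in the other 4 libraries (0.06 ± 0.59). Nsdhl, a sterol decarboxylase, ran from 40.0 to 93.4 CPM with dopamine, against 38.4 to 119 CPM without it (-0.05 ± 0.47), and Sc5d, a sterol desaturase, from 97.4 to 213 and from 99.6 to 137 CPM (0.33 ± 0.31). Ebp, a sterol isomerase, and Tm7sf2, a sterol reductase, were among the exceptions to the library pattern. Ebp stayed between 8.94 and 14.5 CPM with dopamine, against 9.67 and 11.1 CPM without it (0.22 ± 0.28), the narrowest range of the enzymes at 1.62-fold. Tm7sf2 was lowest in dopamine 1 at 12.6 CPM and highest in blank U at 31.6 CPM (-0.23 ± 0.39).

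**Figure D3:**
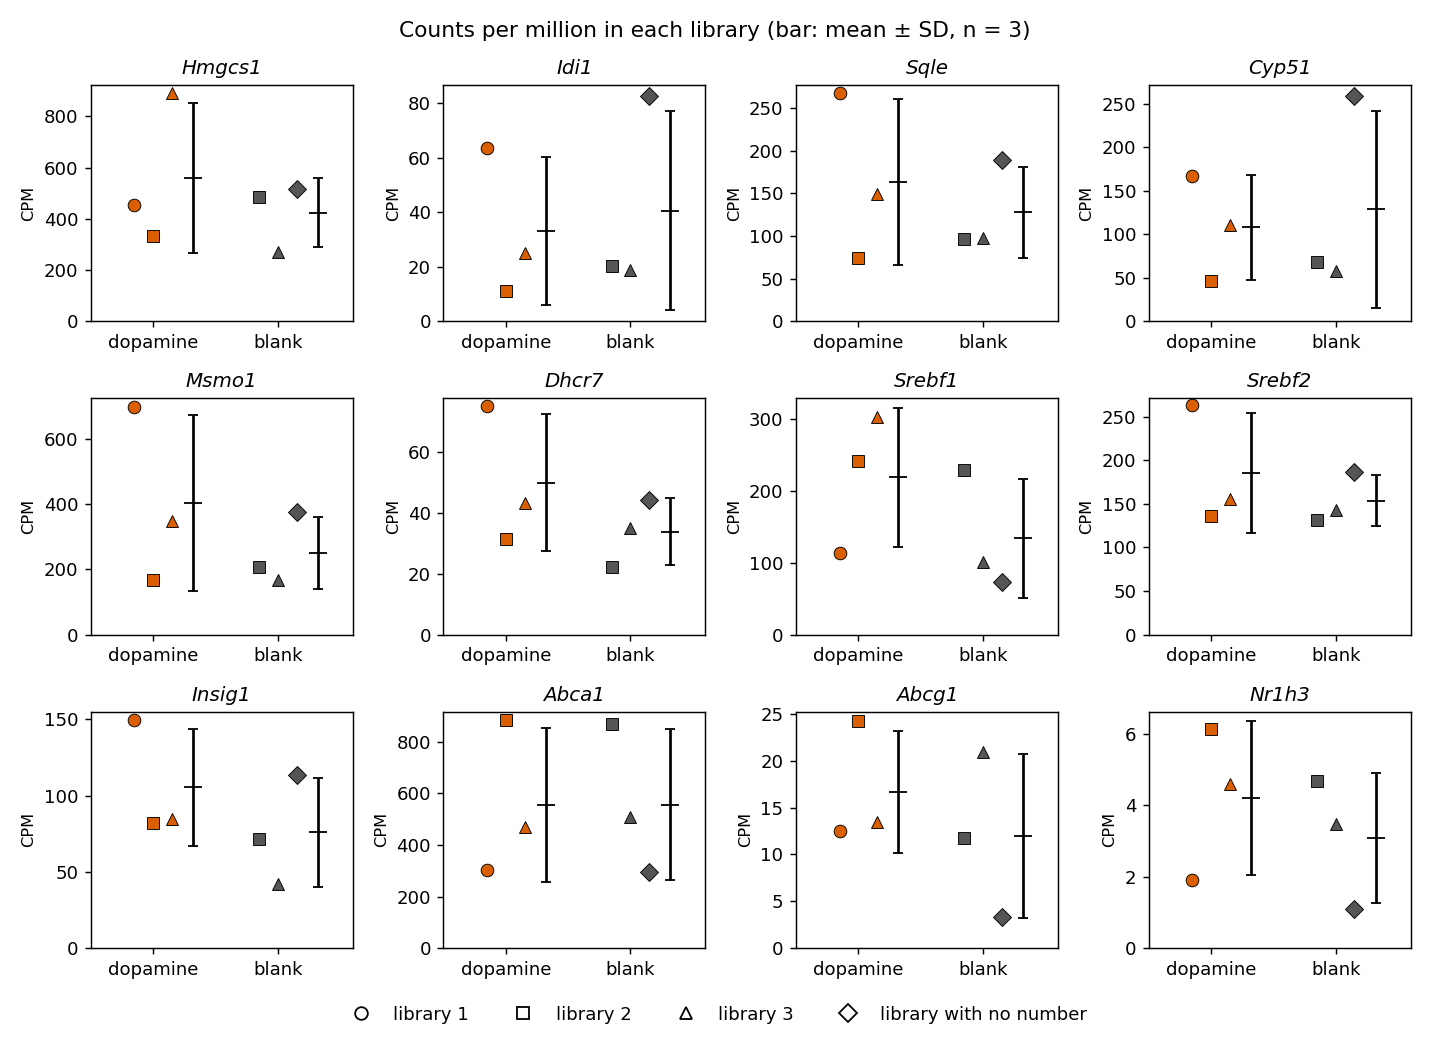
CPM of 12 genes in each dopamine (left) and blank (right) library, with marker shapes for library numbers and the mean ± SD of each group (n = 3). The groups overlap in all 12 panels, and for Idi1 and Cyp51 blank U lies above every dopamine library.

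Of the sensing genes, Srebf1 lay below its mean log2 CPM in dopamine 1 and blank U, where Srebf2 lay above its own. In blank 3 both lay below. Srebf1, whose protein mainly drives fatty acid synthesis, stood at 113, 241 and 302 CPM in dopamine 1, 2 and 3, against 228, 100.5 and 73.4 CPM in blank 2, 3 and U (0.71 ± 0.52). Dopamine 2 and dopamine 3 lay above every blank library and dopamine 1 did not. Srebf2, whose protein mainly drives cholesterol synthesis, stood at 264, 136 and 155 CPM in dopamine 1, 2 and 3, against 131, 143 and 187 CPM in blank 2, 3 and U (0.27 ± 0.30). Its 2 highest libraries were those highest for most enzymes, over a range of 2.01-fold. Scap, the SREBP escort, varied least of the 30 genes, 1.39-fold, from 105 to 145 CPM with dopamine, against 104.5 to 124 CPM without it (0.08 ± 0.20).

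Insig1, itself an SREBP target, stood at 150 CPM in dopamine 1, 82.0 in dopamine 2 and 84.6 in dopamine 3, against 71.8, 42.2 and 114 CPM in blank 2, 3 and U (0.47 ± 0.41). It was highest in dopamine 1, and of the blank libraries only blank U lay above the lower dopamine values. Insig2, a related retention protein, stood at 70.6, 55.9 and 50.6 CPM in dopamine 1, 2 and 3, against 58.6, 67.3 and 41.4 CPM in blank 2, 3 and U (0.08 ± 0.24). It was lowest in blank U, the second highest for Insig1.

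Transport genes split. Stard4, a carrier that moves sterols between membranes and an SREBP target, stood at 71.1, 18.5 and 25.2 CPM in dopamine 1, 2 and 3, against 22.9, 34.1 and 52.2 CPM in blank 2, 3 and U (0.07 ± 0.55). Like most enzymes it was highest in dopamine 1 and blank U. Abca1, which loads cholesterol onto apolipoprotein A-I, stood at 305, 886 and 472 CPM in dopamine 1, 2 and 3, against 870, 507 and 294 CPM in blank 2, 3 and U (-0.0070 ± 0.52). Its 2 lowest libraries were the 2 highest of Stard4, and the groups overlapped.

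Abcg1, which exports cholesterol to high density lipoprotein, stood at 12.5, 24.2 and 13.4 CPM in dopamine 1, 2 and 3, against 11.8, 20.9 and 3.36 CPM in blank 2, 3 and U (0.48 ± 0.62). Its range was 7.22-fold, and its lowest library, blank U, had 70 counts. Soat1, the enzyme that esterifies cholesterol for storage, stood at 75.7, 157.5 and 122 CPM in dopamine 1, 2 and 3, against 161, 77.8 and 97.7 CPM in blank 2, 3 and U (0.08 ± 0.36). Dopamine 1 and blank 3 were its lowest libraries, as they were for Tm7sf2 and Ebp.

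Nr1h2, the broadly expressed liver X receptor, stood at 39.4, 74.2 and 53.0 CPM in dopamine 1, 2 and 3, against 52.8, 66.2 and 41.5 CPM in blank 2, 3 and U (0.05 ± 0.29). Nr1h3, the other receptor, stood at 1.89, 6.14 and 4.59 CPM in dopamine 1, 2 and 3, against 4.69, 3.47 and 1.10 CPM in blank 2, 3 and U (0.45 ± 0.65). Both receptors had their 2 lowest values in dopamine 1 and blank U. Per exonic length Nr1h2 (median 15.01 FPKM) was more abundant than Nr1h3 (median 1.57 FPKM) over the 6 libraries. Mylip stood at 6.19, 11.7 and 6.1 CPM in dopamine 1, 2 and 3, against 9.32, 13.6 and 3.45 CPM in blank 2, 3 and U (-0.14 ± 0.54). It too was lowest in blank U.

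Libraries of the same group, which share their treatment label, were also compared pair by pair. All 18 enzymes were higher in dopamine 3 than in dopamine 2 (50.1% of all genes tested), with a median log2 ratio of 0.65, while 0 of 3 liver X receptor genes and Mylip and 1 of 4 transport genes were. All 18 were higher in blank U than in blank 3 (49.5% of all genes tested; median log2 ratio 1.20), and 17 of 18 than in blank 2 (48.7%; 0.9956), Ebp being the exception. Dopamine 1 exceeded dopamine 2 for 16 of 18 (50% of all genes tested; median 1.19), but dopamine 3 for 12 of 18 (48.4%; 0.53). Between blank 2 and blank 3 the enzymes split, 10 of 18 being higher in blank 2 (50.1%; 0.14). Each pair compares single libraries, with no replicate check.

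**Figure D4:**
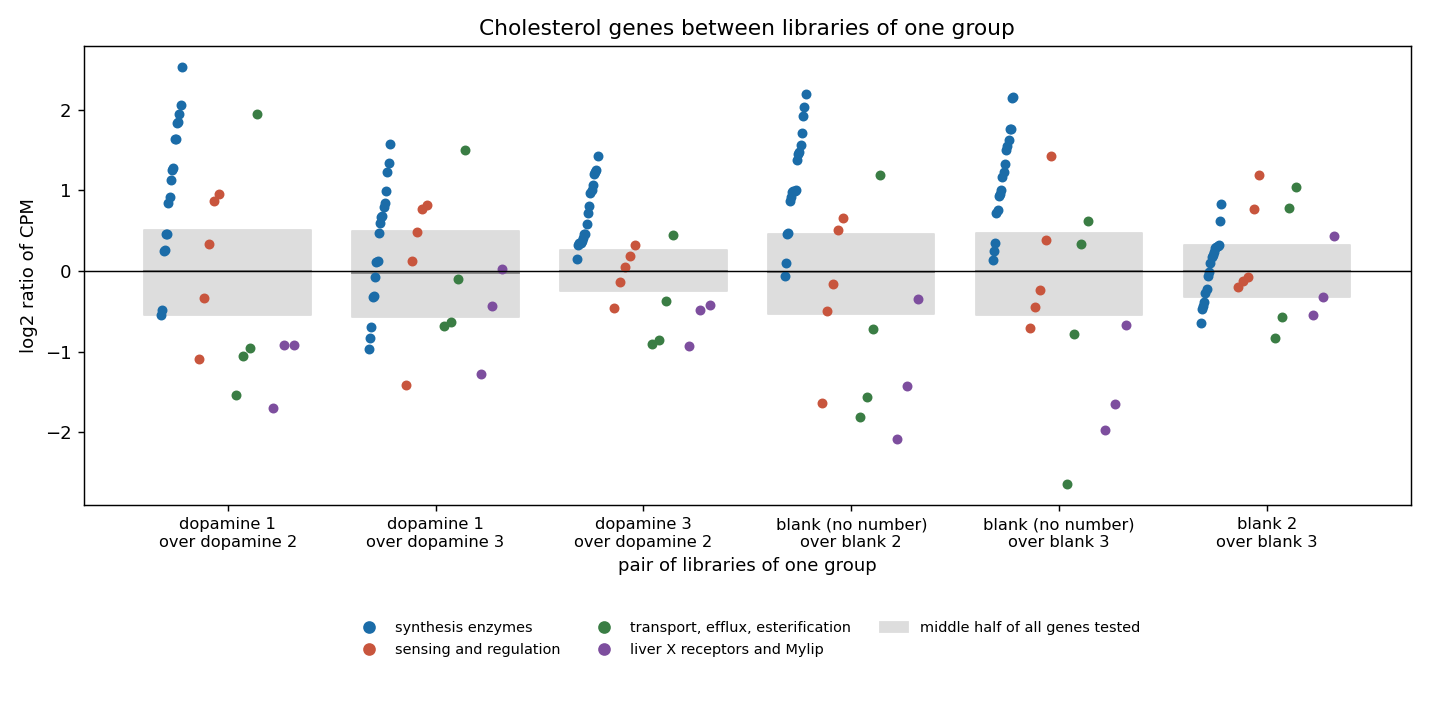
Log2 ratio of CPM between pairs of libraries of one group for each gene, coloured by role, with the middle 50% of all genes tested in grey. All 18 synthesis enzymes lie above 0 for dopamine 3 over dopamine 2 and for blank U over blank 3, while the liver X receptors and Mylip lie below 0 in both.

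Set on one scale per exonic length, Hmgcs1 had the highest median over libraries, 102 FPKM, followed by Fdft1 (47.7), Abca1 (46.6), Msmo1 (43.0) and Srebf1 (29.9). The order differed between libraries. Msmo1 (118 FPKM) exceeded Hmgcs1 (103 FPKM) in dopamine 1, and Abca1 (82.8 FPKM) exceeded Hmgcs1 (70.01 FPKM) in dopamine 2. Insig1 and Sc5d followed at 25.7 and 25.2 FPKM and their libraries overlapped. Abcg1 (1.76) and Nr1h3 (1.57) stood last and likewise overlapped. Lss, whose exonic length in the table is 10787 bases, had a median of 2.99 FPKM.

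**Figure D5:**
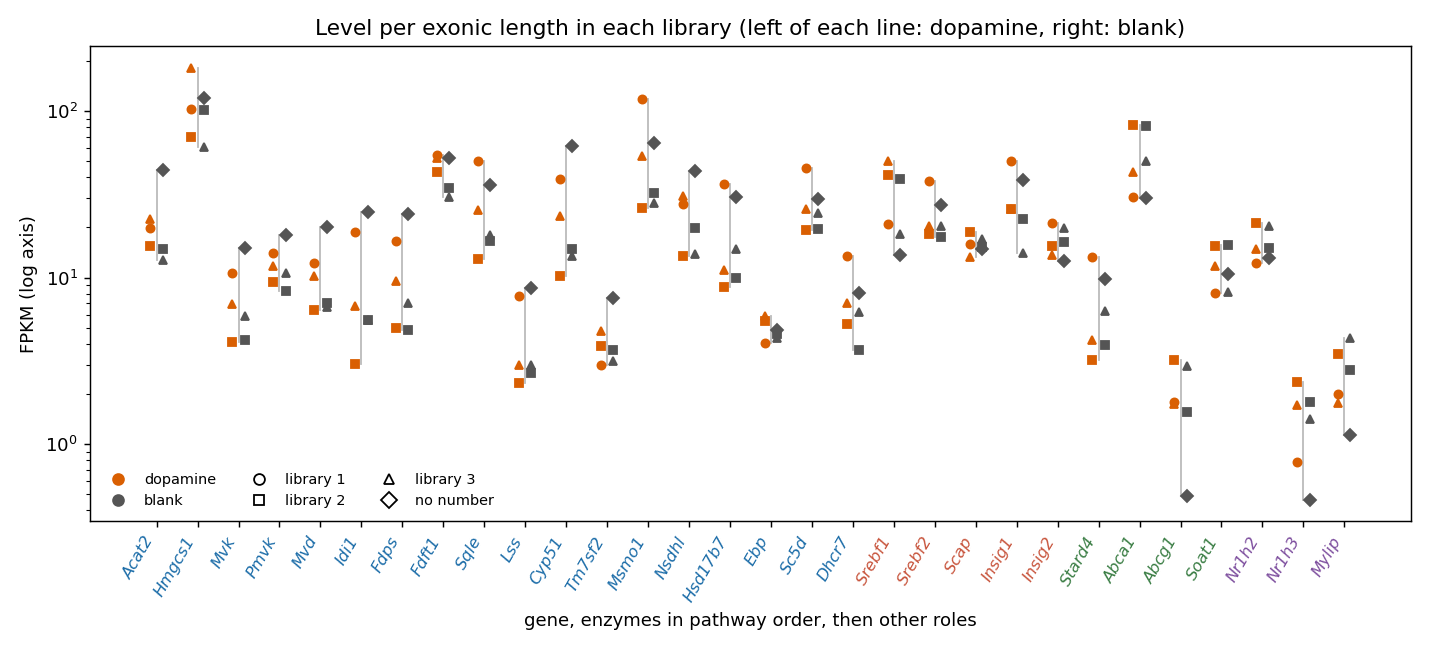
FPKM (log axis) of each gene in each library, enzymes in pathway order and then the other roles, with dopamine left and blank right of each vertical line. By median Hmgcs1 is highest, at 60.9 to 183 FPKM over libraries, and Nr1h3 lowest.

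Other genes of sterol and lipid metabolism gave 0 calls in edgeR and 0 in DESeq2. Among 14 lipogenic enzymes 13 were on the higher side, against 7975 of 15420 genes tested, with a median log2 fold change of 0.43 (0.29 without blank 3 and 0.71 without blank 2), beside 0.01 for all genes tested. An unadjusted edgeR p under 0.05 on the higher side was reached by 1 of 14 (background 1.04%). That was Acss2, which makes acetyl-CoA from acetate, at 181, 129.5 and 152.5 CPM in dopamine 1, 2 and 3, against 88.9, 100.1 and 67.4 CPM in blank 2, 3 and U (0.85 ± 0.23, edgeR adjusted p = 0.9997). The Acss2 log2 fold change was 0.71 without blank U, 0.98 without blank 3 and 0.57 in the libraries numbered 2 and 3 only. Its groups did not overlap, nor did those of Fasn, fatty acid synthase, at 340 to 389 CPM with dopamine, against 181 to 310 CPM without it (0.48 ± 0.26, and 0.28 without blank 3). For 2 of 14 the dopamine values all lay above the blank ones (background 4%). Dopamine 1 and blank U were highest for 4 of 14 (28.6%, against 15.4% of all genes tested) and lowest for 5 of 14 (35.7%, against 16.4%).

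In the isoprenoid branch, which uses farnesyl diphosphate for other products, 5 of 12 genes were on the higher side (median -0.02). Rabggta, a geranylgeranyl transferase subunit, lay at 71.0 to 116 CPM with dopamine, against 47.1 to 62.8 CPM without it (0.70 ± 0.26), and Pdss2, a subunit of the enzyme that makes the ubiquinone side chain, at 15.6 to 15.99 and 10.3 to 14.2 CPM (0.33 ± 0.23). The Rabggta log2 fold change was 0.43 without dopamine 1, and that of Pdss2 was 0.20 without blank U. Of 9 genes of SREBP processing and sterol-regulated turnover 5 were on the higher side (median 0.02), and of 20 other genes of sterol uptake, movement and oxidation 10 (median -0.00031). Cyp46a1, the neuronal cholesterol hydroxylase, lay at 37.7 to 64.0 CPM with dopamine, against 12.5 to 33.1 CPM without it (1.07 ± 0.39, edgeR adjusted p = 0.9997). In the libraries numbered 2 and 3 only, its log2 fold change was 0.57 and that of Rabggta 0.35. In these 3 lists the number of genes with all dopamine values above the blank ones was 2 of 12, 0 of 9 and 1 of 20 (background 4%). The number with an unadjusted edgeR p under 0.05 on the higher side was 1 of 12 (Rabggta), 0 of 9 and 1 of 20 (Cyp46a1), against a background of 1.04%. Dopamine 1 and blank U held the 2 highest values in 2 of 12, 2 of 9 and 2 of 20 genes of these lists, against 15.4% of all genes tested. They held the 2 lowest values in 5 of 12 (41.7%), 1 of 9 and 2 of 20, against 16.4% of all genes tested.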

How the data were processed

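RNA from 3 dopamine and 3 blank libraries was prepared with a SMART-Seq HT kit and read as 150-base pairs, per the labels' protocols; that chemistry does not mark strand. The authors deposited 1 table of read counts per gene, with FPKM per library beside them and the exonic length of each gene, per the file headers. The build was GRCm39, per the submitters' processing notes; for aligner, counter and annotation the entry is: not given in the sources used here. Deposited FPKM matched CPM per kilobase of exon, within 0.0051, for 56691 of 56691 genes in dopamine 2, blank 2 and blank 3 and for 53803 in dopamine 1, so FPKM was recomputed from counts for all libraries. Another 2 per-sample columns could not be tied to a sample and were not used.

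Counts were filtered with filterByExpr, scaled by TMM and tested with edgeR 4.0.16 (glmQLFit and glmQLFTest, R 4.3.3) over 15420 genes, with Benjamini-Hochberg adjustment and a threshold of 0.05. CPM values are TMM-scaled and FPKM values are not, and ± after a log2 fold change is its standard error. The biological coefficient of variation was 0.427, and 3 counts, the limit that a count of 0 allows, came to 0.128 to 0.179 CPM; this limit covers counting error only. Alternatives were DESeq2 1.42.0, limma 3.58.1 on log2(FPKM + 1) and log2(FPKM + 0.1), RLE size factors, other filters, each library left out, and the libraries numbered 2 and 3 with and without a replicate block. The code was tested on simulated data. The 30 genes and the other lists were chosen with earlier results of these data known. All 30 genes are named; of the other lists, those genes whose groups did not overlap are. Promoter windows and words came from RefSeq (GRCm38.p6), and no coordinates were carried between builds.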

Additional observations from a re-analysis of the deposited data

How the results depend on the processing

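Across 14 alternatives, 0 of 420 values of the 30 genes passed the test, and 70 turned sign. The signs of Fdft1, Msmo1, Ebp, Dhcr7, Srebf1, Insig1, Abcg1 and Nr1h3 held in all 14, but their sizes did not: with a library left out they ran from 0.25 to 0.64 for Fdft1, 0.045 to 1.11 for Msmo1, 0.077 to 0.40 for Ebp, 0.14 to 0.80 for Dhcr7, 0.40 to 1.32 for Srebf1, 0.13 to 0.89 for Insig1, 0.036 to 1.15 for Abcg1 and 0.050 to 0.87 for Nr1h3. With a library left out, which turned 13 signs without blank U and 11 without dopamine 2, those of the other genes ran as follows: Acat2 -0.55 to 0.50, Hmgcs1 -0.11 to 0.65, Mvk -0.48 to 0.54, Pmvk -0.22 to 0.32, Mvd -0.43 to 0.50, Idi1 -1.17 to 0.77, Fdps -0.61 to 0.82, Sqle -0.19 to 0.76, Lss -0.74 to 0.60, Cyp51 -0.71 to 0.77, Tm7sf2 -0.46 to 0.22, Nsdhl -0.35 to 0.51, Hsd17b7 -0.78 to 0.59, Sc5d -0.028 to 0.55, Srebf2 -0.074 to 0.44, Scap -0.076 to 0.17, Insig2 -0.092 to 0.24, Stard4 -0.74 to 0.42, Abca1 -0.53 to 0.46, Soat1 -0.20 to 0.42, Nr1h2 -0.22 to 0.25, Mylip -0.52 to 0.33. The medians ran from -0.23 to 0.58 for synthesis, 0.12 to 0.44 for sensing and regulation, -0.046 to 0.44 for transport, efflux and esterification and -0.22 to 0.33 for the liver X receptors and Mylip.

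In the libraries numbered 2 and 3 only, fitted with a replicate block, the sign turned for these genes: Acat2 0.49, Mvk 0.17, Pmvk 0.22, Mvd 0.30, Fdps 0.30, Cyp51 0.19, Tm7sf2 0.40, Nsdhl 0.36, Hsd17b7 -0.25, Insig2 -0.24, Stard4 -0.38. Without the block, the values were: Acat2 0.51, Mvk 0.21, Pmvk 0.22, Mvd 0.34, Fdps 0.36, Cyp51 0.31, Tm7sf2 0.40, Nsdhl 0.45, Hsd17b7 -0.25, Insig2 -0.24, Stard4 -0.39. The sensing and regulation median was 0.087 with the block and 0.089 without it. Same-numbered libraries deviated from the mean of libraries 2 and 3 of their group with a correlation of -0.10. This value is by construction the same for both numbers, so it cannot show whether the numbers pair the libraries. The main fit assumed no pairing. The block, its absence and the crossed pairing, added after seeing the data, each gave 0 genes called by edgeR, with 1122, 1403 and 1519 at an unadjusted p under 0.05.

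limma on log2(FPKM + 1) turned Hsd17b7 -0.10, Stard4 -0.11, Nr1h2 -0.013, and limma on log2(FPKM + 0.1) turned Hsd17b7 -0.12, Stard4 -0.14, Nr1h2 -0.015. DESeq2 called 20 genes of all those tested, 0 of them among the 30, and edgeR 0. The cause of these changes was not tested. With 3 libraries a group and a biological coefficient of variation of 0.427, a missed threshold does not show that levels were alike.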

Other observations

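Scd1, a stearoyl-CoA desaturase outside the 30 genes and named after its values were seen, stood at 663, 3333 and 3297 CPM in dopamine 1, 2 and 3, against 1421, 356 and 391 CPM in blank 2, 3 and U. Its log2 fold change was 1.75 ± 0.79 (edgeR adjusted p = 0.9997), from 1.43 to 2.69 with a library left out, and the groups overlapped because dopamine 1 lay below blank 2.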
